A study of Homo sapiens with 3 samples.

Results

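Heat shock proteins and cochaperones were followed in HCT116 cells, a human colon cancer cell line, through 10 genes: HSPA1A, HSPA1B, HSPA8, HSPH1, HSP90AA1, HSP90AB1, DNAJB1, HSPD1, HSPE1 and HSPB1. A member was taken as every gene probe of the microarrays whose transcript accession belongs to 1 of these genes, which gave 16 probes for the 10 genes, of 50599 gene probes and 21614 named genes in all. Measurable signal on all 3 arrays was found for 15 of the 16 probes, which cover 9 of the 10 genes. Over the whole series, 18121 probes and 12031 named genes passed the same filter.

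The study asked what a short RNA transcribed from the HOXA5 locus does in these cells, and silenced it with short interfering RNAs (siRNAs). HCT116 cells received control siRNA, siRNA #7 or siRNA #8, the latter pair both directed at the HOXA5 short RNA, for 48 h, and 400 ng of total RNA per condition was labelled in 1 colour and hybridized to an Agilent SurePrint G3 array. There was 1 array per condition, so no difference between conditions has a replicate check and none was tested. Both siRNAs were read against the same control array, so their ratios are not independent of each other. The siRNAs are shown here because their sequences overlap. The last 17 of the 21 bases of siRNA #7 are the first 17 of siRNA #8, printed in capitals.
siRNA #7: gagaAACUGAAAGACAACAUA
siRNA #8: AACUGAAAGACAACAUAggcg

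Heat shock proteins are molecular chaperones that bind unfolded or partly folded proteins and help them to reach or regain their shape. HSP70 proteins take clients handed to them by J-domain proteins and release them with the help of nucleotide exchange factors, HSP90 proteins mature kinases and steroid receptors, and the chaperonins enclose a client in a chamber. Many of the genes are switched on by heat shock factor 1 (HSF1), which binds inverted repeats of the unit GAA, the heat shock element, and cancer cells often carry high basal levels of these RNAs.

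Promoter windows from RefSeq (GRCh38.p14), running from 250 bases before to 50 bases after each annotated start, were found for all 10 members, 16 windows in all. A pair of inverted units, GAANNTTC or TTCNNGAA, each of which reads the same on both strands and may overlap the other, stood in 9 of the 16 member windows, which belong to 8 of the 10 members, and in 13.5% of all 35116 windows. GAANNTTC was found in 9 of the 16 member windows and in 6.77% of all windows, TTCNNGAA in 4 of 16 and 7.74%, and a run of 3 units, GAANNTTCNNGAA or TTCNNGAANNTTC, in 4 of 16 (1 each of HSPA8, HSP90AA1, HSP90AB1 and HSPD1) and 0.49%. HSPE1 and HSPH1 held no such pair in their windows. The stretches printed here stand for the arrangements seen, a lone pair in the twin genes HSPA1A and HSPA1B, separate pairs in DNAJB1, and runs of units in HSP90AA1 and HSPD1, with the matched letters in capitals and the gene's strand read 5′ to 3′. They lie at chr6:31815422-31815459 (+ strand, HSPA1A), chr6:31827618-31827655 (+ strand, HSPA1B), chr19:14518422-14518489 (- strand, DNAJB1), chr14:102087090-102087147 (- strand, HSP90AA1) and chr2:197500053-197500090 (- strand, HSPD1).
HSPA1A: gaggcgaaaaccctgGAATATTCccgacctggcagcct
HSPA1B: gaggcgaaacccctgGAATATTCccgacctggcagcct
DNAJB1: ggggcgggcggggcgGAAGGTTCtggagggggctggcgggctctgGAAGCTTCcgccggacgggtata
HSP90AA1: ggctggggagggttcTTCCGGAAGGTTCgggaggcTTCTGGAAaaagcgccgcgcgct
HSPD1: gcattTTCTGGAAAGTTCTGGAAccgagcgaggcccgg
The pair began 106 bases before the HSPA1A start and 105 bases before that of HSPA1B, and the windows of these genes were the same at 277 of 299 bases compared (92.6%). HSPD1 and HSPE1 lie head to head, and a window of HSPD1 shares 204 bases with that of HSPE1. The HSPD1 stretch printed here ends 38 bases outside the HSPE1 window. A match of letters is a description of these windows, and no factor binding was measured here.

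Intensities below are the processed signals of the scanner software, in arbitrary units, and ratios are log2 ratios after each array was divided by the 75th percentile of its gene probes (52.8 on the control array, 42.1 for siRNA #7, 42.8 for siRNA #8). Because the control array was the brightest by this measure, an intensity that was lower with an siRNA can carry a ratio near 0. The error given beside a ratio is the spot-to-spot SD of its arrays combined, taken from probes printed 10 times at a similar brightness. For a probe that was itself printed 10 times, the SD of each array was divided by the square root of its number of unflagged spots. The error of such a probe is therefore a standard error and smaller than that of a single spot. Either error covers printing and scanning on these arrays but not the culture, the RNA extraction or the labelling. No gene spot was saturated on any array. Probes for all 6 epithelial markers (EPCAM, CDH1, KRT8, KRT18, KRT19 and CLDN4) and for 2 of 4 intestinal markers (CDX1 and CDX2, not VIL1 or GPA33) were measurable. Of the markers of other cell types, COL1A1, DES and ACTA2 were measurable and PTPRC, CD3E, PECAM1, COL3A1 and VIM were not. The HOXA5 probe read 84.9 on the control array, 52.6 for siRNA #7 and 58.5 for siRNA #8, log2 ratios of -0.36 ± 0.25 and -0.23 ± 0.26 (spot-to-spot SD), and where this probe lies relative to the short RNA was not examined.

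The stress-inducible members of the HSP70 system, HSPA1B, DNAJB1 and HSPH1, had lower scaled intensities on both siRNA arrays, by 1.32- to 1.48-fold with siRNA #7 and by 1.11- to 1.29-fold with siRNA #8 (the probe with the highest mean level standing for each gene), and with siRNA #7 each of these lay more than 1 spot-to-spot SD from the control array. HSPH1 with siRNA #8 lay within 1 spot-to-spot SD of it, as did the mitochondrial chaperonin genes HSPD1 and HSPE1 with both siRNAs. The HSPA1B value with siRNA #8 did not keep its direction when the position of its spot was allowed for. With siRNA #7, 7 of the 9 measurable members lay below control siRNA and 2 above, with a median log2 ratio of -0.18, beside 48.4% of all 12031 genes below and a median of 0.01. With siRNA #8, 6 of 9 lay below and 3 above, with a median of -0.15, beside 49.2% of all genes and a median of 0.01. Of those above, HSP90AA1 and HSPD1 lay within 1 spot-to-spot SD of the control array, and of those below, HSPH1 and HSPE1 did. The HSP90AA1 probe printed 10 times, which does not stand for the gene here, lay below at -0.18 ± 0.05. The siRNA #8 median of the members shrank to -0.025 after removal of the deviation of neighbouring spots and to -0.030 after removal of the local deviation of probes printed 10 times, while the siRNA #7 median was -0.16 and -0.19 under these settings. None of the 9 members reached a 2-fold difference in either direction with either siRNA. Across all genes, 1.72% were at least 2-fold lower and 2.05% at least 2-fold higher with siRNA #7, and 3.03% and 1.95% with siRNA #8. With the scaling used here none of the members reached 1.5-fold either, against 6.92% of all genes lower and 7.56% higher with siRNA #7, and 10.2% lower and 7.79% higher with siRNA #8. At these shares fewer than 1 of 9 genes would be past the fold in each direction, so a count of 0 says nothing particular about the members. By position among all genes, 4 of 9 fell below the lower quartile of all genes with siRNA #7 (-0.23) and 2 of 9 with siRNA #8 (-0.28).

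**Figure D1:**
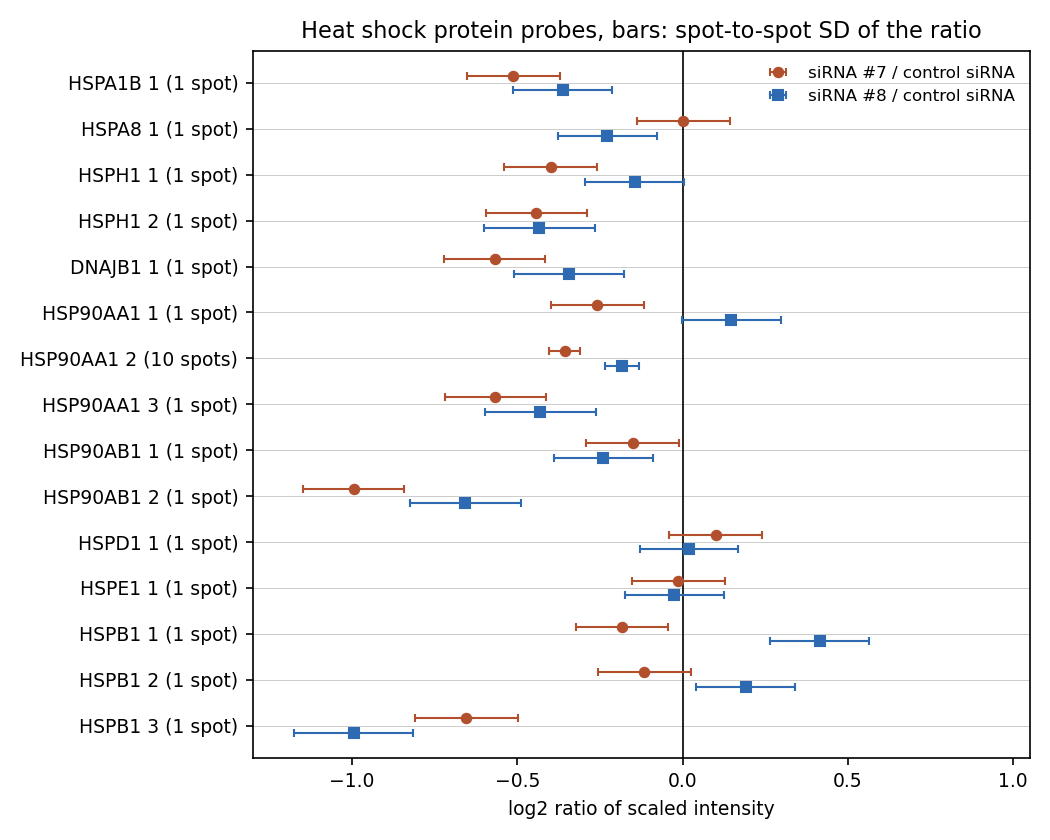
Log2 ratio of scaled intensity for each of the 15 measurable probes of the heat shock members, siRNA #7 (circles) and siRNA #8 (squares) against control siRNA, 1 array each; probes of a gene are numbered from the highest control intensity and bars show the spot-to-spot SD. Most points lie left of 0, the HSPD1 and HSPE1 points straddle it, and the second HSP90AB1 probe and the third HSPB1 probe lie farthest to the left.

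HSPA1B, a stress-inducible cytosolic HSP70, read 6572 on the control array, 3674 for siRNA #7 and 4142 for siRNA #8. The control array was the highest, and the log2 ratios were -0.51 ± 0.14 and -0.36 ± 0.15. With siRNA #7, 9.47% of all measurable probes had a lower ratio, and with siRNA #8, 19.0%. This single spot (row 348, column 4 of 384 rows and 164 columns) lies in a part of the array where the siRNA #8 array read low: spots of probes printed 10 times within 8 rows and 8 columns of it had a median deviation from their own probe's median of 0.15 on the control array, 0.08 with siRNA #7 and -0.23 with siRNA #8 (log2), a local shift of the ratio of -0.07 and -0.38. After removal of that shift the siRNA #8 ratio was 0.032, and after removal of the deviation of neighbouring spots within 3 rows and 3 columns it was 0.22, so that the direction with siRNA #8 was not kept, while the siRNA #7 ratio stayed below 0 at -0.24 under the latter setting. HSPA1A, the twin gene with nearly the same promoter stretch above, gave no measurable signal: its probe, printed 10 times, was not well above background at any of its spots on any array, with mean intensities of 1.53, 1.71 and 1.82 for control siRNA, siRNA #7 and siRNA #8. The coding sequences of this pair of genes are almost the same, so RNA of either copy may hybridize to the HSPA1B probe, and the HSPA1B values cannot be assigned to 1 copy.

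DNAJB1, the J-domain protein that hands clients to inducible HSP70, read 1002 on the control array, 538 for siRNA #7 and 640 for siRNA #8. Again the control array stood highest, and the ratios of -0.57 ± 0.15 and -0.34 ± 0.17 made DNAJB1 the lowest of the 9 members with siRNA #7. Among all measurable probes, 7.64% had a lower ratio with siRNA #7 and 20.1% with siRNA #8. The local shift at this spot was small, -0.05 and 0.03. Its ratios stayed below 0 under all 11 other settings run, from -0.84 to -0.51 for siRNA #7 and from -0.56 to -0.29 for siRNA #8. With 1 probe for DNAJB1, the mean of the passing probes and the other filters could not change its ratios.

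HSPH1, an HSP110 protein that serves as a nucleotide exchange factor for HSP70, had a pair of measurable probes, and all 4 of their ratios were below 0. The first read 4062 on the control array, 2456 for siRNA #7 and 2976 for siRNA #8, ratios of -0.40 ± 0.14 and -0.15 ± 0.15. The second read 606, 355 and 364 in the same order, ratios of -0.44 ± 0.15 and -0.43 ± 0.17. The probes gave near-equal values with siRNA #7 and differed by 0.29 with siRNA #8, where the first lay within 1 spot-to-spot SD of the control array. HSPA8, the constitutive HSP70 of the cytosol, read 5727 on the control array, 4569 for siRNA #7 and 3963 for siRNA #8. Its ratio was 0.00 ± 0.14 with siRNA #7 and -0.23 ± 0.15 with siRNA #8, so that the order of the siRNAs was opposite to that of HSPA1B, DNAJB1 and the first HSPH1 probe. These orders rest on small differences. For siRNA #8 against siRNA #7, HSPA8 gave -0.23 ± 0.15, HSPA1B 0.15 ± 0.15 and DNAJB1 0.22 ± 0.15. The HSPH1 probes gave 0.25 ± 0.15 and 0.01 ± 0.15. Removal of the deviation of neighbouring spots brought the HSPA8 ratio with siRNA #8 against control siRNA to -0.03.

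HSP90AA1, the inducible cytosolic HSP90, had 3 measurable probes, and these were lower with siRNA #7 in every case but not with siRNA #8. The probe that stands for the gene, chosen for the highest mean level, read 22127 on the control array, 14754 for siRNA #7 and 19857 for siRNA #8, ratios of -0.26 ± 0.14 and 0.15 ± 0.15. The third probe read 1058, 569 and 636, ratios of -0.57 ± 0.15 and -0.43 ± 0.17. With siRNA #8 these probes therefore lay on opposite sides of 0.

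The remaining HSP90AA1 probe was printed at 10 places on each array and is the most precisely measured of the members. Over the spots without an outlier flag, it read 9383 ± 834 with control siRNA (SD, 9 spots), 5840 ± 408 with siRNA #7 (9 spots) and 6691 ± 408 with siRNA #8 (8 spots). The unflagged control spots ran from 8468 to 11126, those with siRNA #7 from 5197 to 6411 and those with siRNA #8 from 6157 to 7349. Neither siRNA array overlapped the control array before scaling, but this gap includes the brighter control array (75th percentile 52.8, against 42.1 and 42.8). Divided by these percentiles, the unflagged siRNA #8 spots overlapped the control spots and the siRNA #7 spots did not. After scaling, the ratios were -0.36 ± 0.05 and -0.18 ± 0.05 (standard error over the spots). Taken spot by spot with flagged spots kept, all 10 places were lower with siRNA #7, by a median of -0.32 and a range from -1.01 to -0.02, and 9 of 10 were lower with siRNA #8, by a median of -0.15 and a range from -1.75 to 0.18. The place farthest from the others, row 346 and column 4, read 11126, 4408 and 2687, was flagged on both siRNA arrays, and lies 2 rows from the HSPA1B spot. The 10 spots share 1 RNA sample per array and show the precision of the arrays, not of the conditions.

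**Figure D2:**
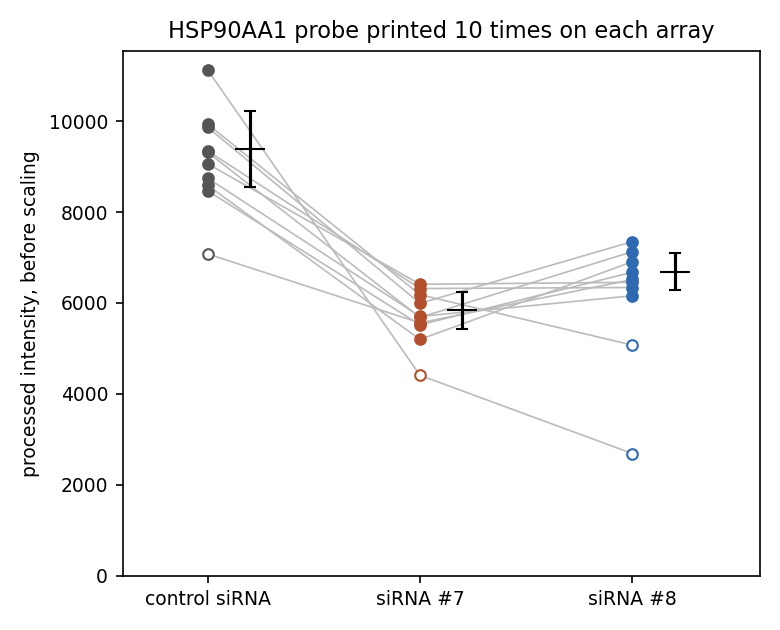
Processed intensity before scaling (y axis) of the HSP90AA1 probe printed 10 times on each array, for the control siRNA, siRNA #7 and siRNA #8 arrays; lines join the spots at the same place, open symbols are spots with an outlier flag, and black marks show the mean ± SD of the unflagged spots. The unflagged spots of the siRNA arrays lie between 5197 and 7349, all below the unflagged control spots before scaling. The control array was the brightest, and after scaling the unflagged siRNA #8 spots overlap those of the control array.

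HSP90AB1, the constitutive cytosolic HSP90, had a pair of probes that lay below control with both siRNAs but by unequal amounts. The probe with the higher level read 7104 on the control array, 5100 for siRNA #7 and 4876 for siRNA #8, ratios of -0.15 ± 0.14 and -0.24 ± 0.15. The other read 1135, 454 and 583, ratios of -0.995 ± 0.15 and -0.66 ± 0.17, which is 1.99-fold lower with siRNA #7. Only 1.88% of all measurable probes had a lower ratio than this second probe with siRNA #7, against 31.5% for the first, so the size of the HSP90AB1 difference depends on the probe.

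The mitochondrial chaperonin pair, HSPD1 (HSP60, the chamber) and HSPE1 (HSP10, its lid), did not stand apart from the control array. HSPD1 read 25263 on the control array, 21591 for siRNA #7 and 20752 for siRNA #8, ratios of 0.10 ± 0.14 and 0.02 ± 0.15. HSPE1 read 19069, 15067 and 15186, ratios of -0.01 ± 0.14 and -0.03 ± 0.15. All 4 ratios lay within 1 spot-to-spot SD of 0, and at this precision a difference of that size could not be seen.

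HSPB1, the small heat shock protein HSP27, which holds unfolded clients for the HSP70 system, had 3 probes that did not run the same way. Its first probe read 18985 on the control array, 13328 for siRNA #7 and 20502 for siRNA #8, ratios of -0.18 ± 0.14 and 0.41 ± 0.15, and siRNA #8 against siRNA #7 gave 0.60 ± 0.15. The second probe ran the same way with smaller differences, reading 15397, 11324 and 14237, ratios of -0.12 ± 0.14 and 0.19 ± 0.15. The third probe read 347, 176 and 141, with ratios of -0.65 ± 0.16 and -0.995 ± 0.18, and here siRNA #8 was the lowest array. With the mean of the 3 probes in place of the first, the HSPB1 ratio with siRNA #8 was -0.13 and not above 0, so no direction is given for HSPB1 with siRNA #8.

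The position of a probe on the array moved with these differences. Of the 14 measurable member probes printed once, 5 stood within 3 spots of an edge (those of HSPA1B and DNAJB1, the third of HSP90AA1, the second of HSP90AB1 and the third of HSPB1). These 5 had the 5 lowest ratios with siRNA #7, from -0.995 to -0.51, while the other 9 ran from -0.44 to 0.10. With siRNA #8 the ranges met, from -0.995 to -0.34 near an edge and from -0.43 to 0.41 elsewhere. The probes near an edge were also dim, all but that of HSPA1B reading from 347 to 1135 on the control array. Of the other 9, all but the second HSPH1 probe (606) read 4062 or more there. In HSPH1, HSP90AA1, HSP90AB1 and HSPB1 the dimmest probe had the lowest ratio with each siRNA, while the brightest stood for the gene. The part of brightness in these values was not tested. Over all measurable probes printed once, the 1153 within 3 spots of an edge had a median ratio of 0.06 with siRNA #7 and 0.04 with siRNA #8, and the 16370 others 0.02 and 0.02, so that the edges as a whole did not read low. The part of position in the members' values was not tested beyond the local shift, which lay between -0.07 and 0.22 at these 5 spots with siRNA #7 and was -0.38 for HSPA1B alone with siRNA #8, against 0.03 to 0.12 at the other 4.

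The wider chaperone network was read through lists of genes by role, of which 79 of 91 genes outside the 10 members were measurable. With siRNA #7, 54 of the 79 lay below control siRNA and 25 above, with a median log2 ratio of -0.11, beside 48.4% of all genes below and a median of 0.01. With siRNA #8, 44 lay below and 35 above, with a median of -0.03, beside 49.2% of all genes below and a median of 0.01. The counts of each list below are to be read beside the same shares of all genes. At least 1.5-fold lower were 11 of 79 with siRNA #7 and 9 with siRNA #8, beside 6.92% and 10.2% of all genes. At least 1.5-fold higher were 2 with each, beside 7.56% and 7.79% of all genes.

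The HSP70 and HSP110 family, members included, was the list with the lowest medians, -0.54 with siRNA #7 and -0.30 with siRNA #8. In each, 10 of 12 measurable genes lay below control siRNA, beside 48.4% and 49.2% of all genes. HSPA9, the mitochondrial HSP70, read 1062 on the control array, 369 for siRNA #7 and 745 for siRNA #8, ratios of -1.20 ± 0.15 and -0.21 ± 0.17. HSPA5, the HSP70 of the endoplasmic reticulum, read 656, 339 and 321, ratios of -0.63 ± 0.15 and -0.73 ± 0.18. HSPA9 was thus lowest on the siRNA #7 array, with siRNA #8 in between, while HSPA5 was about equally low on both.

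The J-domain list had 16 of 19 measurable genes below control siRNA with siRNA #7 and 10 of 19 with siRNA #8, at medians of -0.10 and -0.03. Of all genes, 48.4% and 49.2% lay below, so the siRNA #8 count stood near that share. DNAJA1, a cytosolic J-domain partner of HSP70, read 1571 on the control array, 458 for siRNA #7 and 1276 for siRNA #8, ratios of -1.45 ± 0.14 and 0.00 ± 0.15. Its single spot stands 1 spot from the edge, and removal of the deviation of neighbouring spots brought the siRNA #7 ratio to -0.76. DNAJC9, a histone chaperone with a J-domain whose probe was printed 10 times, went the other way, with mean intensities of 1691, 1494 and 601 and ratios of 0.15 ± 0.04 and -1.19 ± 0.05. DNAJB4 (-0.12 ± 0.40 and -1.46 ± 0.41) and DNAJB12 (-0.01 ± 0.16 and -1.32 ± 0.21) also lay past 2-fold below control with siRNA #8 and near it with siRNA #7. DNAJB4 was dim, at 30.4 on the control array, 22.3 for siRNA #7 and 8.96 for siRNA #8. For DNAJB12 the siRNA #8 value was -0.79 after removal of the deviation of neighbouring spots.

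HSP90 cochaperones were split, with 8 of 13 below control siRNA with siRNA #7 and 6 of 13 with siRNA #8, beside 48.4% and 49.2% of all genes. STIP1, which links HSP70 to HSP90, had ratios of -0.32 ± 0.16 and 0.13 ± 0.18, which became 0.011 and 0.32 after removal of the deviation of neighbouring spots. PTGES3, the cochaperone p23, read 117 on the control array, 67.2 for siRNA #7 and 42.4 for siRNA #8, ratios of -0.47 ± 0.19 and -1.16 ± 0.21. In the list of HSP70 nucleotide exchange factors and other HSP70 cochaperones, 6 of 10 lay below control siRNA with siRNA #7 and 8 of 10 with siRNA #8, and BAG3, itself a target of HSF1, had ratios of -0.51 ± 0.19 and -0.35 ± 0.18. The cytosolic chaperonin and prefoldin list was lower in 10 of 14 genes with siRNA #7 and in 7 of 14 with siRNA #8. Its prefoldin subunit PFDN2 was the only list gene at least 2-fold higher, with intensities of 1836, 2375 and 3254 and ratios of 0.70 ± 0.14 and 1.13 ± 0.15, which became 0.14 and 0.37 after removal of the deviation of neighbouring spots.

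All 4 genes of the HSP90 family lay below control siRNA with siRNA #7 and 2 of 4 with siRNA #8, and of the mitochondrial chaperonin list 2 of 5 and 4 of 5 did. That list holds CLPB, CLPP and LONP1, which are not chaperonin subunits, beside HSPD1 and HSPE1. Of all genes, 48.4% and 49.2% lay below. Of the small heat shock proteins, 3 of 10 were measurable. Among the factors that act on the genes, HSF1 had ratios of -0.10 ± 0.14 and 0.15 ± 0.15 and HSF2 of -0.15 ± 0.15 and 0.17 ± 0.17, each within about 1 spot-to-spot SD of the control array. Other HSF1 targets were lower in 9 of 13 genes with siRNA #7 and in 6 of 13 with siRNA #8. This list overlaps the others, since HSPA4, CHORDC1, CACYBP, BAG3, DNAJA1, STIP1, FKBP4 and AHSA1 are also counted in the lists above. SERPINH1, the collagen chaperone HSP47, had ratios of 0.23 ± 0.14 and -0.06 ± 0.15.

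**Figure D3:**
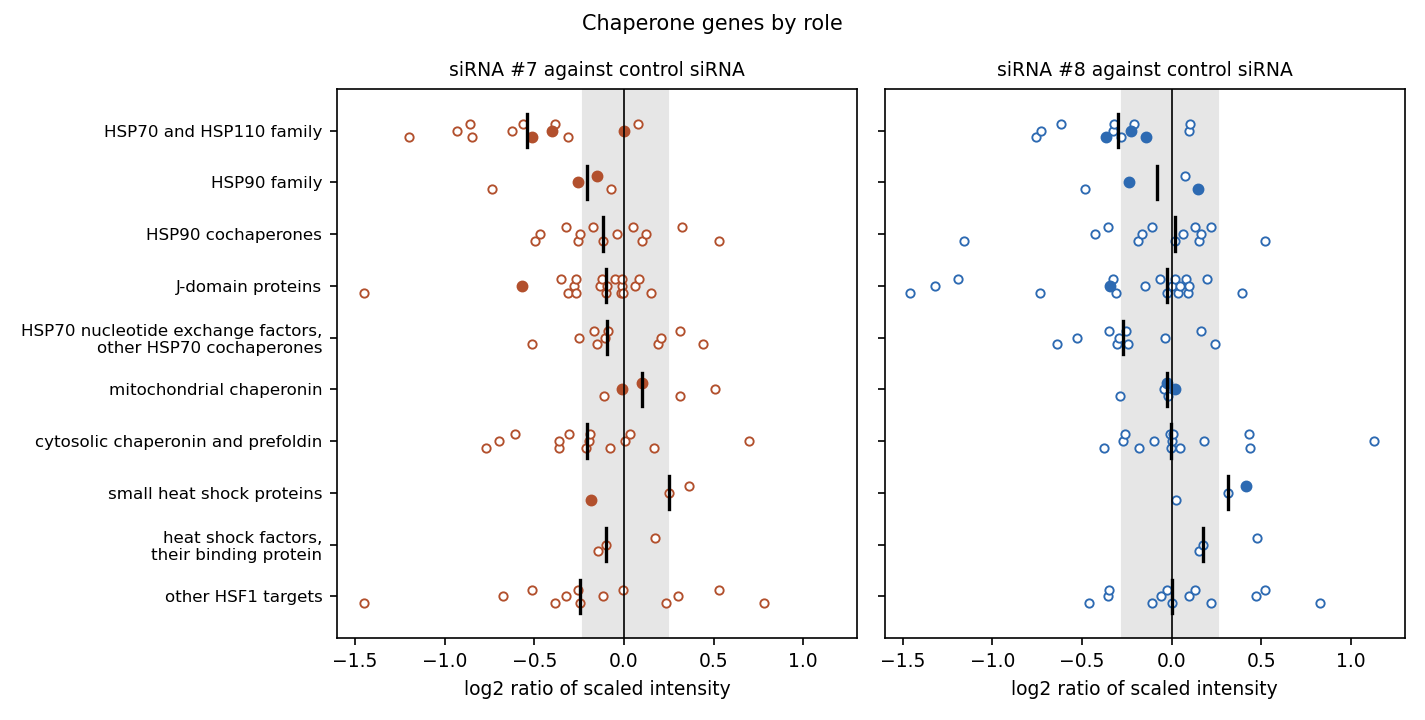
Log2 ratio of scaled intensity (x axis) for the measurable genes of each chaperone list (rows), siRNA #7 on the left and siRNA #8 on the right, 1 array each; filled symbols are the 10-gene set, open symbols other genes, black ticks list medians, and the grey band the interquartile range of all 12031 genes. The HSP70 and HSP110 tick lies left of the band in both panels (-0.54 and -0.30), and most other ticks lie inside it.

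Across the 11 other settings run for the arrays, HSPA1B, HSPH1, DNAJB1, HSP90AA1, HSP90AB1, HSPE1 and HSPB1 stayed below control siRNA with siRNA #7. With siRNA #8, HSPA8, HSPH1, HSP90AB1 and DNAJB1 did so, while HSPA1B, HSP90AA1, HSPD1, HSPE1 and HSPB1 took both signs. Not every setting was a check, since the other filters left the ratio of each of these genes unchanged. The mean of the passing probes also left HSPA1B, HSPA8, DNAJB1, HSPD1 and HSPE1 unchanged, as each has 1 probe. HSP90AA1 with siRNA #8 ran from -0.16 to 0.20 and HSPB1 with siRNA #8 from -0.13 to 0.47. HSP90AB1 ran from -0.57 to -0.018 with siRNA #7 and from -0.45 to -0.082 with siRNA #8, so that removal of the deviation of neighbouring spots, which gave the values nearest 0, left it within 1 spot-to-spot SD of the control array.

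**Figure D4:**
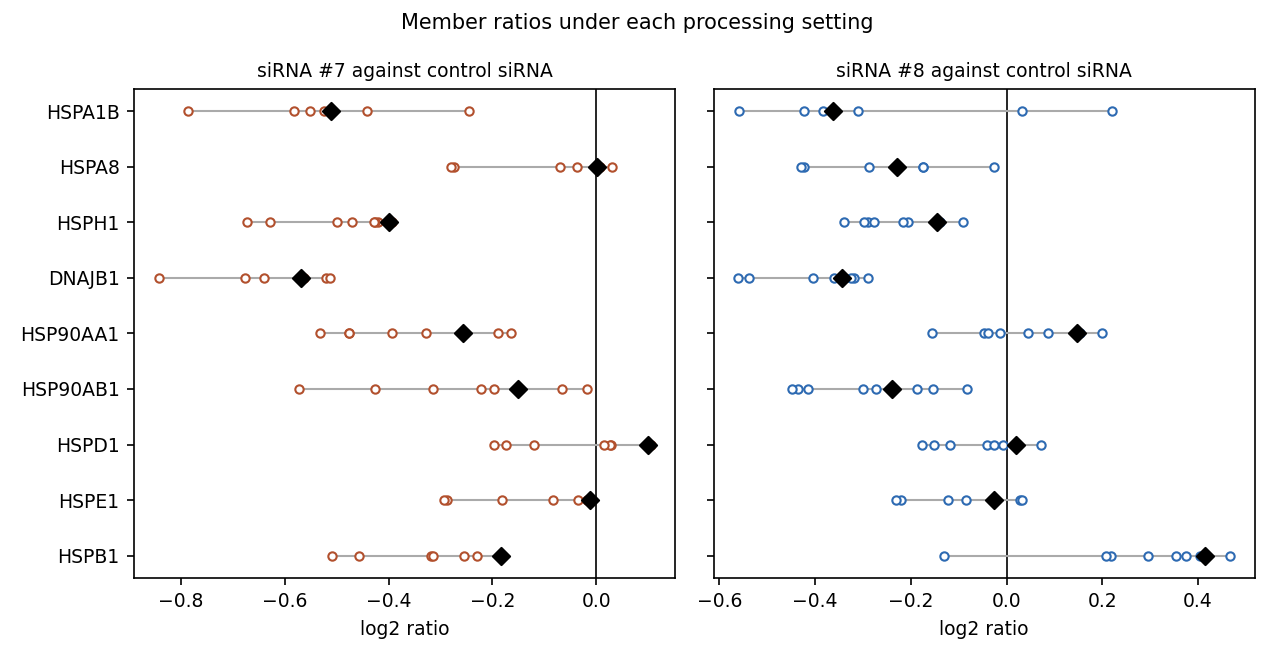
Log2 ratio (x axis) of the 9 measurable members under each processing setting, siRNA #7 on the left and siRNA #8 on the right; diamonds are the values reported, open circles the 11 alternatives and grey lines their range. With siRNA #8 the circles of HSPA1B reach 0.22 and those of HSPB1 reach -0.13, across 0 from the reported values.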

How the data were processed

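Total RNA of HCT116 cells was hybridized to 1-colour Agilent SurePrint G3 Human arrays, and the authors deposited 1 spot file per array together with a table of log2 values; per the file headers the images were read with Agilent Feature Extraction 11.5.1.1. The deposited spot files give the intensity of each spot as the processed signal, which the software had background-subtracted and corrected across the array. The study's methods name GeneSpring, a filter at the 20th percentile and a filter on flags, and no normalization. Probes were designed on an older genome build than the RefSeq names used here (GRCh38.p14), so no probe position in the genome is given.

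From these values, control spots and flagged outlier spots were dropped, the spots of each probe were averaged (50593 probes had a value on all 3 arrays), and log2 intensities were taken minus the 75th percentile of the array. A probe was measurable when it lay at or above the 20th percentile of 2 or more arrays and at least 50% of its spots were well above background on each of the 3. Transcript accessions were named through RefSeq, and the probe with the highest mean level stood for its gene. The number of arrays, 1 per condition, limits the precision, and no test between conditions was run. Spot-to-spot SDs came from probes printed 10 times, pooled in 6 ranges of brightness.

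The members, every probe of each, were named with HOXA5, each gene of the chaperone lists past 2-fold with either siRNA, and BAG3, HSPA5, HSPA9, HSF1, HSF2, STIP1, DNAJA1 and SERPINH1 whatever their values. Members and lists were chosen with earlier results of these data known. The alternatives were scaling to the median, to probes above background, by quantiles or to 8 E1A spike-in probes, normexp (limma, offset 50, on median signals), the deposited log2 table, the mean of a gene's probes, other filters, and removal of neighbouring spots. Removal of the local deviation of probes printed 10 times was added after the data were seen. The steps were tested on simulated data. Python 3.11.15, numpy 2.4.6, pandas 2.3.3 and limma 3.58.1 were used. Of the marker genes, 1 is not reported here.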

Additional observations from a re-analysis of the deposited data

How the results depend on the processing

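No member reached 2-fold under any setting. The counts of members below control siRNA, 7 and 6 of 9 as reported, ran under the 11 alternatives from 7 to 9 with siRNA #7 and from 5 to 8 with siRNA #8. These counts are of 9 members, or of 10 without a filter on dim probes. The absence of members past 1.5-fold did not hold under every setting with siRNA #7. DNAJB1 was past it, and lower, with scaling to the median (-0.64), normexp (-0.68) and E1A scaling (-0.84). HSPH1 was so with normexp (-0.63) and E1A scaling (-0.67), and HSPA1B with E1A scaling (-0.79). Scaling on the E1A spike-in probes lowered all ratios alike, moving the median of all genes by -0.27 with siRNA #7 and -0.20 with siRNA #8 and that of the members to -0.46 and -0.34. Relative to all genes, the members' median with siRNA #7 was -0.20, and -0.41 with the mean of the passing probes and -0.42 with normexp on median signals, where the members' own medians were -0.39 and -0.48; the cause was not tested. With siRNA #8 the members' median relative to all genes was -0.15, and -0.034 after removal of neighbouring spots and -0.054 after removal of the local deviation of probes printed 10 times. Without a filter on dim probes the median of all genes moved by 0.13 with each siRNA. HSPA1B with siRNA #8 changed direction to 0.22 after removal of neighbouring spots and to 0.032 after removal of the local deviation of probes printed 10 times, an alternative chosen after seeing the data, and HSPB1 with siRNA #8 changed direction to -0.13 with the mean of its 3 probes. No paired analysis was possible because every condition is represented by a single array, and none could be left out. Probes near background, such as that of HSPA1A, give no ratio.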
